A study of Mus musculus with 2 samples.

Results

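Grhl2 and Grhl3 are mammalian members of the grainyhead-like family of transcription factors, and they were followed here through every row of a transcript table whose mm9 position overlaps either gene. The genes and windows were chosen with earlier results of these data known. Member rows were then selected by position, from chr4:135099000-135129000 for Grhl3 and chr15:37165000-37290000 for Grhl2, because the table gives transcript IDs without gene names. This gave 4 transcripts of 55418, of which 1 lay at the Grhl3 locus and 3 at the Grhl2 locus.

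The study asked which genes separate the non-neural ectoderm from the rest of the neural tube region while the tube closes. Both groups came from the same mouse embryos at embryonic day 9.5, with 21 to 25 somites, from a cross of mTmG reporter mice to Grhl3-cre mice, both on a C57BL/6 background. The mTmG reporter labels cell membranes red until Cre recombinase switches the label to green, so a cell turned green if it or an ancestor had expressed the Cre driven by Grhl3. Green cells made up the non-neural ectoderm group, and red cells, from what was left after tissue other than the neural tube had been dissected off, made up the other group. RNA of 25 embryos was pooled and each group gave 1 library, so no value below has a replicate check and every p-value compares 2 libraries.

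Grainyhead factors bind DNA as dimers and switch on genes of epithelial cells, among them those for cell junctions and the skin barrier. Grhl3 is expressed in the surface ectoderm, and mice that lack it fail to close the neural tube at its caudal end. Grhl2 acts in the same epithelia, where E-cadherin and claudin genes are among its targets, and its loss also leaves the neural tube open. Expression of Grhl1, the third member of the family, was not analysed here, and neither was that of the junction and barrier genes, since the table pairs no ID with a name.

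The table names its conditions only q1 and q2, and neither name occurs in the labels of the 2 groups. Each difference is therefore given as the authors' deposited table signs it, as q2 over q1, and cannot be assigned a direction between green and red cells. For the same reason the abundance of Grhl3 in each library, which would check the labels of the sort, was not used. The family's own rows were not used to assign the conditions either. Sequencing depth is unknown from the columns used.

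Grhl2 and Grhl3 are related genes, so reads could in principle be shared between them, and their coding sequences were compared first. In the GENCODE M21 models on GRCm38, Grhl3 (ENSMUSG00000037188.7) lies on the minus strand of chromosome 4 with 16 exons and 1809 coding bases. Grhl2 (ENSMUSG00000022286.16) lies on the plus strand of chromosome 15, also with 16 exons and with 1875 coding bases. Aligned end to end, the coding sequences matched at 1168 of 1763 aligned bases, or 66.3%. Their longest identical run was 16 bases, and no pair of transcript models of the 2 genes, untranslated parts included, shared a longer one. Likeness over the length of a read, with mismatches allowed, was not computed, so sharing of reads was not tested. The lines below show that run of identical bases in capitals within 60 coding bases of each gene, read from the GENCODE transcripts.
Grhl2, coding bases 139 to 198: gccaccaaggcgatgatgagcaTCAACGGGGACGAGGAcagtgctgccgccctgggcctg
Grhl3, coding bases 127 to 186: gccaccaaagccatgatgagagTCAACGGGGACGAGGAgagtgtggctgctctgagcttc
The longest run that Grhl2 shares with Grhl1 was 29 bases, and that of Grhl3 with Grhl1 was 12 bases.

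The loci match the genes in size. The Grhl3 row, uc008vgr.1, spans 31734 bases on mm9 (chromosome 4, 135097802 to 135129535), against 31743 bases for the GENCODE gene on GRCm38. It is the only transcript listed at its locus, and no other GENCODE gene overlaps Grhl3. The Grhl2 rows, uc007vne.2, uc007vnf.2 and uc011zsf.1, share a locus of 131770 bases on mm9 (chromosome 15, 37161554 to 37293323), against 130534 bases for the GENCODE gene. In GENCODE, 3 other genes overlap Grhl2, the antisense genes Gm16136 and Gm16137 and the processed pseudogene Gm16138. Whether counting used the strand is not given in the sources used here, so reads of Grhl2 and of its antisense neighbours may not be separable, and the table does not say which model each of the 3 rows follows.

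All 3 tested transcripts of the 2 genes had negative fold changes of at least 2-fold, and 0 of them was called significant in the authors' deposited table. Grhl3 had the larger difference, at 5.48-fold, and the tested Grhl2 transcripts differed by 2.66-fold and 2.13-fold. Cuffdiff's test in the authors' deposited table called 236 of 29405 tested transcripts, which is 0.803%, and 33 of the calls were negative, 0.112% of those tested. At an unadjusted p under 0.05, 1 of the 3 stood out, Grhl3, against 3.10% of all tested transcripts and 1.09% with a negative sign. Negative differences of at least 2-fold were found in 5.70% of the 28140 tested transcripts with a finite value, and at least 4-fold in 1.72%. The median log2 fold change of the 3 was -1.41, against 0.0046 over all tested transcripts. Those 3 values are not independent of each other, since 2 of them come from overlapping transcripts of Grhl2.

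Grhl3, whose expression drove the Cre used for the sort, was listed for uc008vgr.1 at a log2 fold change of -2.46 in the authors' deposited table. Its error, taken as the size of the fold change over the size of its test statistic of 3.09, was 0.79, which puts 1 error either side at -3.25 and -1.66. The p-value in the authors' deposited table was 0.00198 and the q-value, adjusted by the authors over many transcripts, was 0.171. The difference was about as large as 3 times its error and was not called. Of the tested transcripts, 339, or 1.15%, had a smaller p, and among the 14693 tested with a negative sign 57 did. By size, 356 transcripts, or 1.27% of those with a finite value, had a lower log2 fold change. Most of these 356 had a test statistic well below that of Grhl3 in size, so the rank by size includes many poorly measured differences. Among the 4181 tested transcripts that, like Grhl3, were the only one at their locus, 22 were lower, or 0.526%, and 8 of those 22 were called. By p the rank moved the other way. Of the tested transcripts alone at their locus, 3.38% had a smaller p than Grhl3, against 1.15% of all tested transcripts.

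The distance of Grhl3 from a call can be given in fold. The smallest test statistic of any call with a finite fold change was 3.54 in size, and the largest p of a call was 0.000393. At the error of Grhl3, a statistic of that size needs a log2 fold change of 2.81, or 7.03-fold, in place of the 5.48-fold listed. The error of Grhl3 was close to typical, since 45.8% of tested transcripts had a smaller one and their median was 0.89. Negative calls had mostly smaller errors. Their median error was 0.57, and 28 of the 29 with a finite value had a smaller error than Grhl3. Smaller errors among calls are partly built in, since the error is the fold change over a statistic that must be large for a call. In size, 15 of those 29 calls were smaller than Grhl3. Among the 2683 tested transcripts with an error within 0.1 of that of Grhl3, 10 had a lower fold change, and 7 were negative calls.

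**Figure D1:**
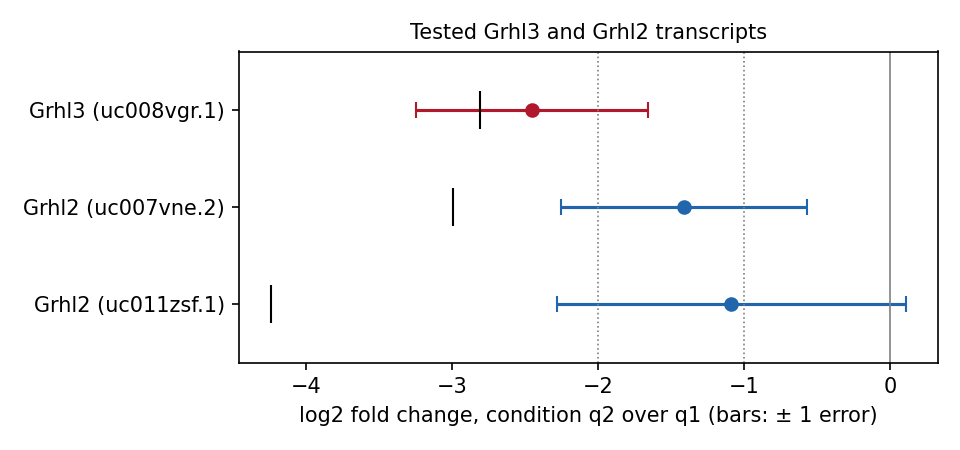
Log2 fold change of condition q2 over q1 for the 3 tested transcripts (points), with 1 error to either side (bars). Black ticks mark the fold change that gives each transcript a statistic of 3.54 in size at the error drawn. That statistic is the smallest of any finite call. Grhl3, at -2.46, lies closest to its tick, at 2.81 below 0, while both Grhl2 transcripts lie far from theirs.

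Grhl2, the family member tied to E-cadherin and claudin expression, was tested through 2 transcripts. For uc007vne.2 the log2 fold change was -1.41 with an error of 0.84, and the p-value and q-value in the authors' deposited table were 0.0943 and 1.00. For uc011zsf.1 it was -1.09 with an error of 1.20, and the authors' deposited table gave a p-value of 0.363 beside a q-value of 1.00. The range of 1 error reached 0.11 above zero for uc011zsf.1, and stopped at -0.57 for uc007vne.2. At these errors, the smallest statistic of a call corresponds to log2 fold changes of 2.99 for uc007vne.2 and 4.25 for uc011zsf.1. A 4-fold difference in either would fall short of that statistic if the errors stayed the same. The error at another fold change is unknown. Of the tested transcripts with a finite value, 3.29% were lower than uc007vne.2 and 4.96% lower than uc011zsf.1.

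The third Grhl2 transcript, uc007vnf.2, was left untested by the authors. The authors' deposited table lists it at a log2 fold change of -15.46 with a p-value of 0.995, so the deposited test gives its size no support. Among the 20978 untested transcripts with a finite value, 284 had fold changes of at least 10 in size on the log2 scale. It shares its sign with the other rows of the gene, but beyond the count of rows at the locus it enters none of the values above.

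The tested Grhl2 transcripts lay 0.32 log2 units apart, less than the error of either. Among 3414 loci with exactly 2 tested transcripts of finite value, the median gap between the pair was 0.41, and 41.9% had a smaller gap than Grhl2. The pair had the same sign at 1817 of these loci, or 53.2%. Both transcripts were at least 2-fold negative at 18 loci, or 0.527%, Grhl2 included, and at least 2-fold positive at 90, or 2.64%. Transcripts of a locus divide reads between them, so the 2 Grhl2 values do not repeat each other as replicates would.

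Between the genes, the difference was smaller than its error. The log2 fold change of Grhl3 minus that of uc007vne.2 was -1.04, with an error of 1.16, and minus that of uc011zsf.1 it was -1.37, with an error of 1.44. These errors combine those of the 2 transcripts as if independent, and no test was run. At this precision the data do not separate the size of the Grhl3 difference from that of Grhl2.

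**Figure D2:**
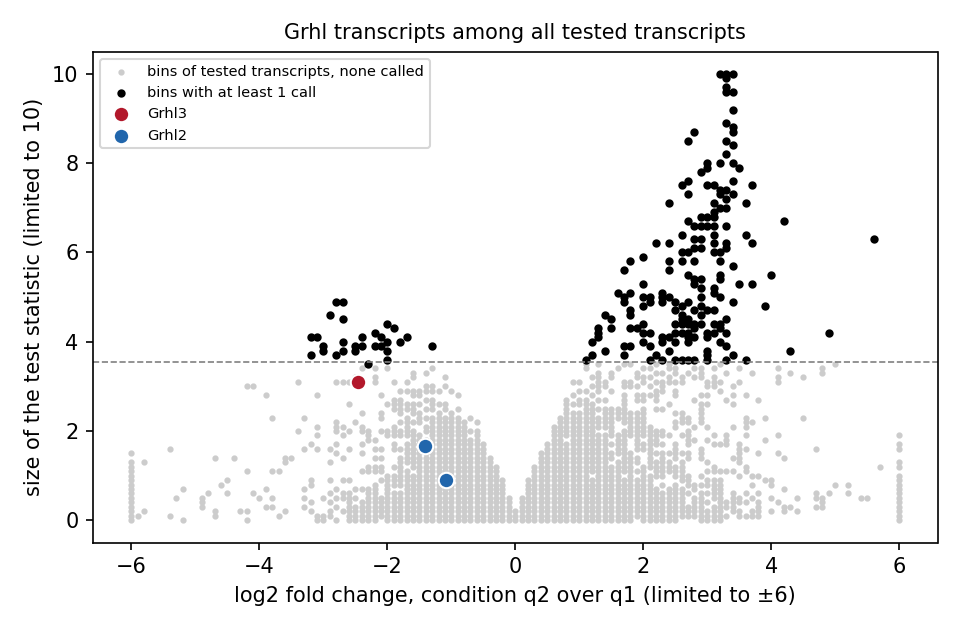
Size of Cuffdiff's test statistic against the log2 fold change of q2 over q1, for bins of the tested transcripts with a finite value (grey: no call, black: at least 1 call) and for Grhl3 (red) and Grhl2 (blue). The dashed line marks the smallest statistic of a call, 3.54, and Grhl3, at 3.09, lies below it on the negative side while the Grhl2 points lie at 1.67 and 0.91.

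The loci around Grhl3 and Grhl2 were listed by distance to show their values beside those of the genes. The 5 nearest loci with a tested transcript on each side of Grhl3 held 17 tested transcripts, from 47.4 to 604 kb away. Their log2 fold changes ran from -0.25 to 0.74 with a median of 0.072, and 5 of the 17 were negative. The errors of these neighbours ran from 0.29 to 17.3. The highest value, 0.74 for uc008vhl.1, had the error of 17.3, and uc008vgf.2 at 0.65 had an error of 14.2, so not all of them were well measured. Around Grhl2, the same rule gave 20 tested transcripts between 2.61 and 1124 kb away, of which 19 had a finite value. These 19 ran from -0.84 to 0.38 with a median of 0.0018, and 9 were negative. At both genes, 0 of these neighbours with a finite value reached 2-fold in either direction and 0 was called. Over all tested transcripts 0.803% were called, so 0 calls among so few neighbours says little. Around Grhl2 the lowest neighbour, at -0.84 with an error of 0.65, was closer to uc011zsf.1, at -1.09, than the error of either, so the data do not separate these values, and no test against the neighbours was run for either gene. The nearest locus to Grhl2, 2.61 kb away, held transcripts at -0.25 and -0.83 with errors of 0.72 and 8.44, and 1 more whose ratio was against 0. The neighbouring loci have no names in the table.

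**Figure D3:**
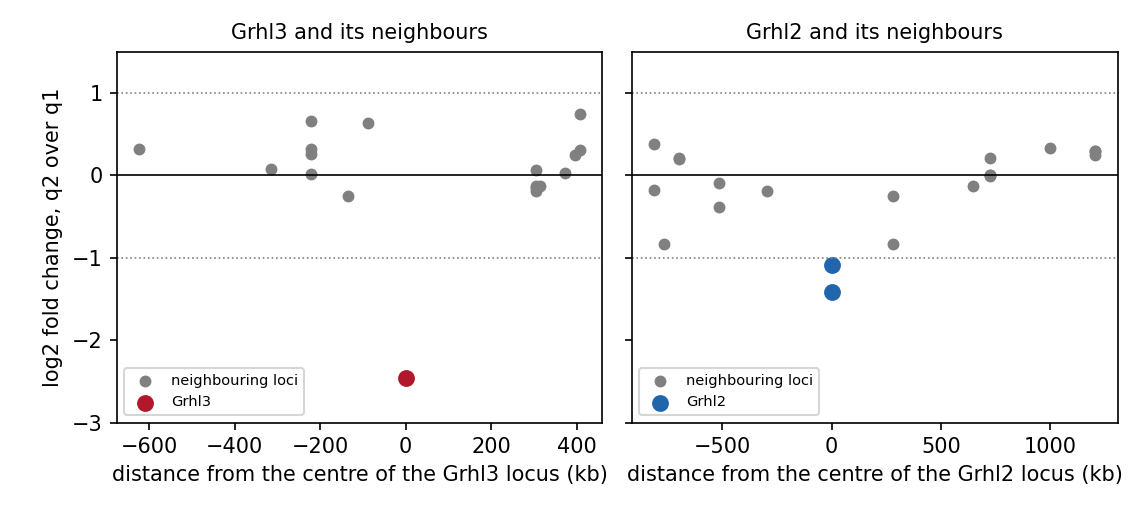
Log2 fold change of q2 over q1 against distance in kb from the centre of the Grhl3 locus (left) and the Grhl2 locus (right), for the tested Grhl transcripts (coloured) and the tested transcripts of the 5 nearest loci on each side (grey); dotted lines mark 2-fold, and transcripts of 1 locus share a position, and 1 transcript near Grhl2 whose ratio was against 0 is not drawn. Every grey point drawn lies within 2-fold, the Grhl3 point lies at -2.46 and the Grhl2 points lie at -1.41 and -1.09, with errors that are not drawn.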

How the data were processed

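Reads were processed on mm9 with TopHat 1.3.2, Cufflinks 2.0.2 and Cuffdiff, per the submitters' processing notes, which name no roles for these tools. Strand use, like annotation and settings, is not given in the sources used here. Each transcript has, as the authors deposited it, a log2 fold change of q2 over q1, a test statistic (a score), a p-value and a q-value. The 2 abundance columns match neither sample's labels and were not used. Gene identity came from mm9 windows. The members, windows and lists were chosen with earlier results of these data known; the planned gene lists and cell type markers need names and were not analysed here. All 4 member rows are named, by rule. Tested means status OK; a call is the authors' own mark. Benjamini-Hochberg adjustment was repeated and tested on simulated data. Errors were computed as fold change over test statistic. Gene models and sequences came from GENCODE M21 (GRCm38), aligned with Biopython 1.88; no coordinates were moved between builds. Python 3.11.15, pandas 2.3.3, numpy 2.4.6, scipy 1.17.1 and matplotlib 3.10.9 were used. The depth of the libraries is unknown, and with 1 library per group p-values measure no biological spread.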

Additional observations from a re-analysis of the deposited data

How the results depend on the processing

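The count of called Grhl transcripts was 0 under the authors' mark, at q-values of at most 0.01 and 0.1, and after Benjamini-Hochberg adjustment over tested rows or over all rows, where the adjusted p of Grhl3 was 0.171 and 0.316. The 3 tested transcripts of at least 2-fold became 1 under a 4-fold rule and 1 at loci with a single transcript, Grhl3 in both cases. They remained 3 after centring on the median and became 4 with rows of every status. Of the 4 rows, 0 lay wholly within the windows, since both loci extend past them on each side. The share of background transcripts at least 2-fold negative, 5.70%, was 4.57% at loci with a single transcript, 5.21% over every status, and 8.08% with ratios against 0 counted, a setting chosen after seeing the data. The planned pseudocount was not run, since abundances were not used. No paired analysis was possible because each group has 1 library, and no replicate could be left out. The depth of the libraries is unknown, and the errors of the 3 tested transcripts were 0.79 to 1.20 log2 units. Whether depth or error affected the calls was not tested.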
